A study of Homo sapiens with 9 samples.

Results

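Transcripts of SR proteins, heterogeneous nuclear ribonucleoproteins (hnRNPs) and core spliceosome factors were followed in MDA-MB-231 cells, a line derived from an estrogen receptor-negative breast adenocarcinoma, after knockdown of metadherin (MTDH). The members were all genes whose symbol in the array annotation starts with SRSF, HNRNP, SF3A, SF3B, U2AF, PRPF or SNRP. This rule found 127 probes of 75 symbols; 4 pseudogene symbols were dropped, which left 71 genes, out of 20046 genes with a probe of a single symbol. They comprise 12 SRSF, 24 HNRNP, 3 SF3A, 6 SF3B, 3 U2AF, 11 PRPF and 12 SNRP genes. Each gene is described by the probe with the highest mean signal, and 68 of the 71 passed the filter on dim probes. PRPF40B, SNRPE and SRSF12 did not pass it and were not tested.

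The study asked how expression after siRNA against wild-type MTDH (the WT knockdown) and after siRNA against a spliced MTDH isoform (the isoform knockdown) differs from untreated cells. All groups were the same cell line grown in DMEM with serum, and the knockdown cells were transfected with 200 pmol siRNA for 24 h. The controls are described as untreated, so the effect of transfection and that of a knockdown cannot be told apart in the comparisons with control, whereas cells of both knockdowns were transfected. Whether replicates are separate cultures is not in the labels, and the p-values below therefore rest on a spread between samples that may be technical. Control replicate 2 was left out of the fit because it is the average of the other controls at each of the 47231 probes, which left 2 control, 3 WT knockdown and 3 isoform knockdown arrays.

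Splicing removes introns from transcripts in the spliceosome, which assembles on each intron from the U1, U2, U4, U5 and U6 small nuclear ribonucleoproteins (snRNPs). SR proteins mostly bind exonic enhancers and promote the use of nearby splice sites, and hnRNPs bind nascent transcripts and often oppose them. The SF3A, SF3B and U2AF proteins recognise the branch site and the 3′ end of the intron, PRPF proteins work in the tri-snRNP and in activation and catalysis, and SNRP genes encode the proteins bound to the small nuclear RNAs.

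On the 8 arrays used, 20295 to 21761 probes were detected, or 43% to 46.1% of all probes. The MTDH probe (ILMN_1810838) read 10.71 and 10.69 in the controls, 9.59, 9.79 and 9.90 in the WT knockdown and 9.87, 9.75 and 9.68 in the isoform knockdown, as normalized log2 signal. Differences below are on this log2 scale, with their limma standard error after ± and the sign of the first-named group minus the second. MTDH was thus lower than control on all knockdown arrays, with differences of -0.94 ± 0.11 after the WT siRNA (limma, adjusted p = 0.000123) and -0.93 ± 0.11 after the isoform siRNA (adjusted p = 0.000285), and the knockdowns differed by 0.00 ± 0.10 (adjusted p = 0.977). The platform annotation ties this probe to 1 MTDH record without saying which exons it reads, so it does not tell the isoforms apart. All 5 mesenchymal markers of the line (VIM, CD44, MSN, AXL and CAV1) were detected on all 8 arrays, while of 7 luminal or epithelial markers KRT19, EPCAM, ERBB2 and GATA3 were detected on all 8 arrays and ESR1, PGR and CDH1 on none. Of the leukocyte markers CD14 and LYZ were detected on all arrays and CD3E on none; 3 of 4 endothelial markers were detected on none and PECAM1 on 1. Of 5 fibroblast markers COL1A1 was detected on 7 arrays, DCN and LUM on 5 each, COL1A2 on 1 and PDGFRA on none, and the part of other cell types in the results was not tested. In bulk RNA, fewer cells of a type and less RNA per cell cannot be told apart. Neither slides nor scan dates were known here, and whether knockdown and control arrays were handled together was not tested.

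The direct comparison of the knockdowns showed more splicing factor genes at the lower level in the isoform knockdown than at the higher level. Of 68 tested members 22 were lower and 8 higher in the isoform than in the WT knockdown, and 38 did not pass the threshold (limma, adjusted p under 0.05 over 22467 probes). Of all 12221 genes tested by their brightest probe, 18.8% were lower and 19% higher in this comparison. The median log2 difference was -0.11 over the members and 0.01 over all genes. By the brightest probe, HNRNPDL, PRPF38B and PRPF3 had the largest falls among members detected in both knockdowns, and HNRNPA1 and SNRPD3 the largest rises. PRPF39, below background in the isoform knockdown, was at least 1.6-fold higher in the WT knockdown. Second probes of HNRNPDL and HNRNPA1 stood on the other side of 0, at 0.60 and -0.22. At least 1.5-fold changes were called for 10 members, against 12.8% of all genes, and the arrays of the knockdowns did not overlap for 40 members, against 51.7% of all genes.

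Against control, members changed in both directions and at about the rate of all genes. In the WT knockdown 26 members were higher and 13 lower, 57.4% of those tested, where 56.3% of all genes passed in either direction, 26.6% as higher and 29.7% as lower. The median difference was 0.12 log2 units over members and -0.02 over all genes. Changes of at least 1.5-fold were called for 21 members against 31.3% of all genes, and 55 members had no overlap between the groups against 72.8% of all genes. In the isoform knockdown 14 members were higher and 12 lower, or 38.2%, where 44% of all genes passed, 19.9% as higher and 24.1% as lower. Its median difference was -0.04 over members and -0.03 over all genes, 14 members were called at 1.5-fold or more against 19.4% of all genes, and 48 members did not overlap with control against 67.4% of all genes. The 3 comparisons share arrays in pairs, so their values stand side by side and are not independent of one another.

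The balance of higher and lower members against control depended on how the arrays were scaled. When each array was centred on its median over all 47231 probes, most of which were not detected, the median of the tested probes moved to -0.19 in the WT and -0.14 in the isoform knockdown against control and to 0.08 between the knockdowns. Members then stood at 11 higher and 22 lower in the WT knockdown, 3 higher and 21 lower in the isoform knockdown, and 4 higher and 9 lower between the knockdowns. Over all tested probes 2849 were higher and 7765 lower, 2103 and 5753, and 3045 and 1875. Members and all probes thus both had more lower than higher calls against control, while between the knockdowns all probes had more higher calls. Centring on the tested probes gave 19 higher and 16 lower, 14 higher and 18 lower, and 9 higher and 19 lower. Over all tested probes it gave 5674 and 6028, 4187 and 5042, and 3360 and 3362. Lower members thus outnumbered higher ones between the knockdowns under each of these scalings, while both comparisons with control turned: the WT knockdown under the first and the isoform knockdown under both. The isoform knockdown also stood at 16 higher and 18 lower members with an offset of 50, with no background correction and with the authors' log2 values, at 16 and 20 with an intensity trend and at 17 and 22 when all 9 columns were kept. In these settings, in that order, 47.1%, 47.1%, 47.1%, 44.4% and 43.6% of the called members were higher. Of all probes called, 46.7%, 47.3%, 47.4%, 47.2% and 47.1% were higher. Leaving out control replicate 1 cut the lower members of the WT knockdown from 13 to 8, and the lower calls over all tested probes from 6076 to 4639.

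**Figure D1:**
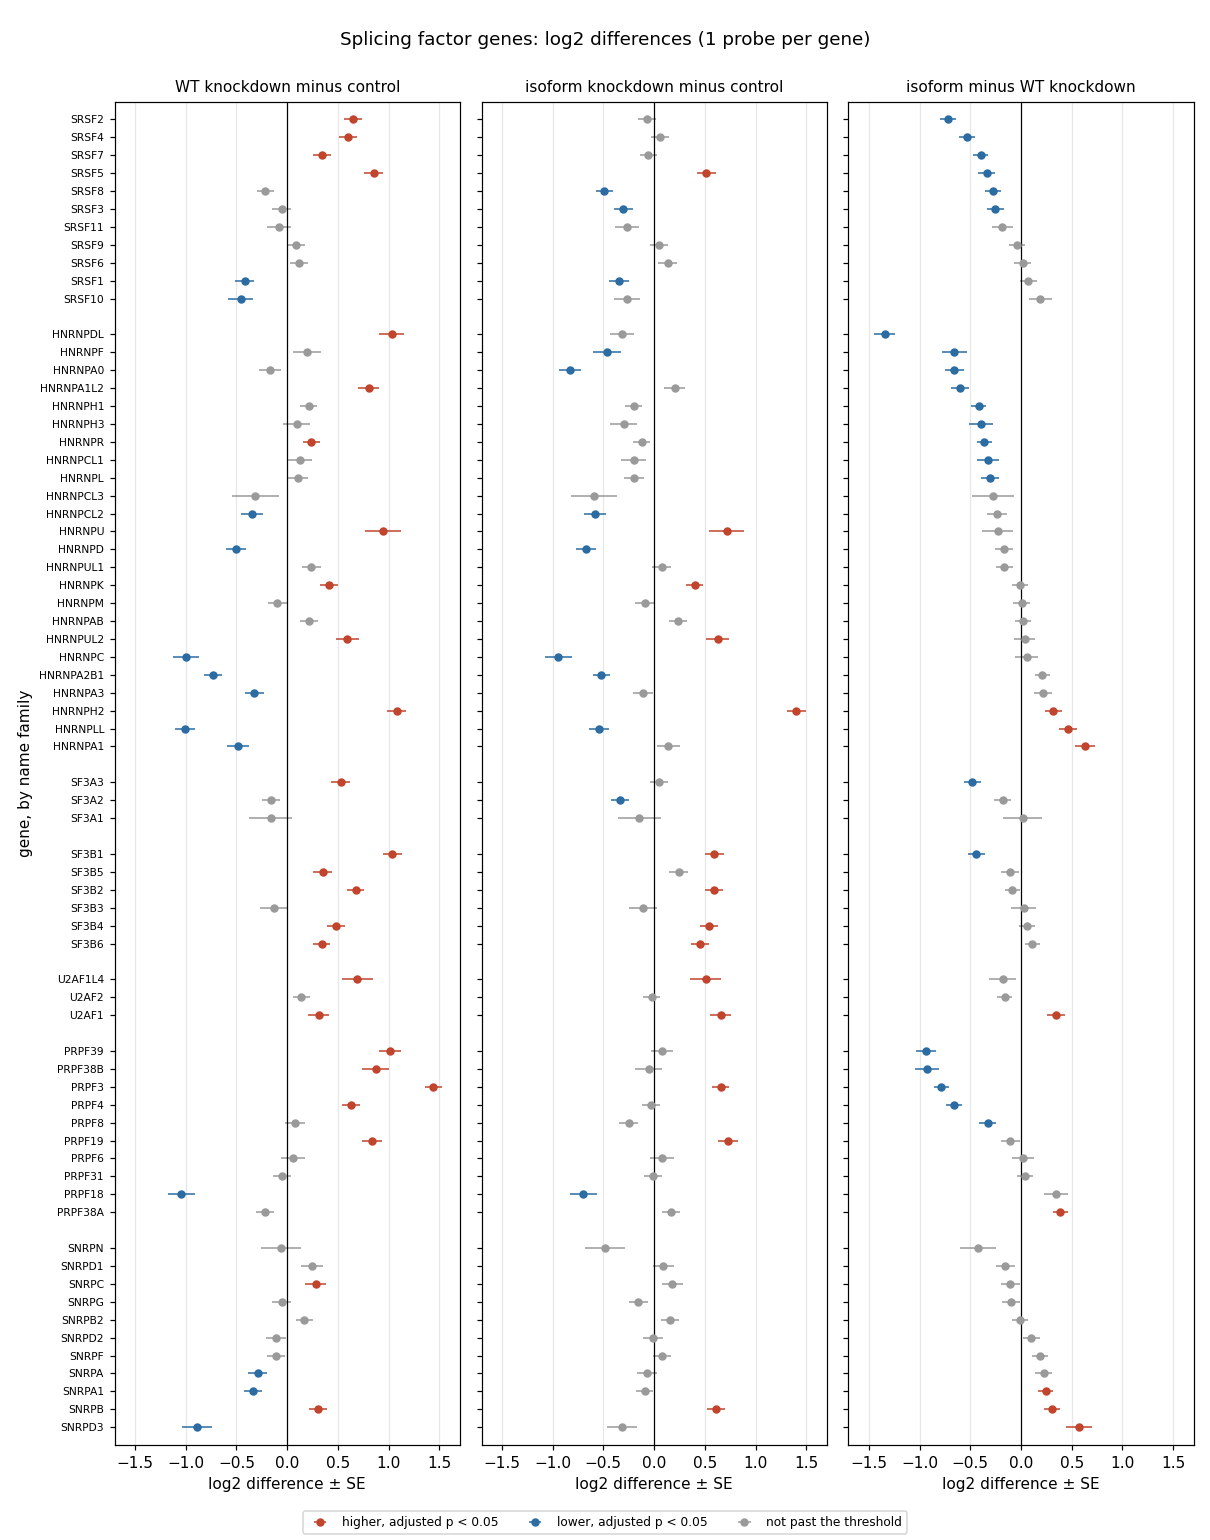
Log2 difference of the 68 tested members, by name family, with the limma standard error as bars, for the WT knockdown minus control, the isoform knockdown minus control and the isoform minus the WT knockdown. Red and blue points passed the threshold as higher (26, 14 and 8) and lower (13, 12 and 22), grey points did not, and centring on all probes turns the WT knockdown panel to 11 higher and 22 lower and the isoform knockdown panel to 3 and 21. Of all tested probes called against control under that centring, 26.8% are higher in each knockdown. PRPF39 was below background outside the WT knockdown, so its points are fitted values, not bounds.

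Among the SR proteins, 6 of 11 tested genes were lower in the isoform than in the WT knockdown and none was higher. Over all genes 18.8% were lower and 19% higher. SRSF2, SRSF4, SRSF7 and SRSF5, which were also the 4 SR genes that rose in the WT knockdown, led this group. Against control 4 rose and 2 fell in the WT knockdown, which became 1 and 3 when the arrays were centred on all probes and 3 and 3 when they were centred on the tested probes. In the isoform knockdown 1 rose and 3 fell, which became 0 and 5 and 1 and 4 under these centrings. The difference between the knockdowns kept 1 lower and 0 higher SR genes with centring on all probes and 5 lower and 0 higher with centring on the tested probes. Without these centrings 26.6% of all genes rose and 29.7% fell in the WT knockdown, and 19.9% and 24.1% in the isoform knockdown. Of all probe calls with centring on all probes, 26.8% were higher in each knockdown against control and 61.9% between the knockdowns. With centring on the tested probes 48.5%, 45.4% and 50% were higher in the 3 comparisons.

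SRSF2 (ILMN_1696407), also known as SC35 and a marker of nuclear speckles, read 12.28 and 12.15 in the controls, 12.85, 12.87 and 12.86 in the WT knockdown and 12.08, 12.20 and 12.15 in the isoform knockdown. All WT knockdown arrays lay above all others, and the isoform arrays overlapped with control. The differences were 0.64 ± 0.09 in the WT knockdown (adjusted p = 0.000287), -0.07 ± 0.09 in the isoform knockdown (adjusted p = 0.549) and -0.72 ± 0.08 between the knockdowns (adjusted p = 0.000211). With centring on all probes the rise in the WT knockdown was 0.31 with an adjusted p of 0.172.

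SRSF5 (ILMN_1761996), an SR protein that shuttles between nucleus and cytoplasm, read 10.53 and 10.69, then 11.53, 11.40 and 11.45 in the WT and 11.10, 11.10 and 11.17 in the isoform knockdown. The groups did not overlap in any pairing: controls were lowest and the WT knockdown highest. SRSF5 rose by 0.85 ± 0.09 in the WT knockdown (adjusted p = 7.54e-05) and 0.51 ± 0.09 in the isoform knockdown (adjusted p = 0.00244), and the isoform arrays were lower than the WT arrays, with a difference of -0.34 ± 0.08 (adjusted p = 0.013). Its other tested probe moved the same way in all comparisons, by 0.60, 0.35 and -0.25. Centring on all probes left the isoform knockdown's rise at 0.26 with an adjusted p of 0.294, and its gap to the WT knockdown at -0.22 with an adjusted p of 0.389.

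SRSF4 and SRSF7, further enhancer-binding SR proteins, rose in the WT knockdown by 0.60 ± 0.09 (adjusted p = 0.000428) and 0.34 ± 0.09 (adjusted p = 0.00821). In the isoform knockdown they differed from control by 0.06 ± 0.09 (adjusted p = 0.631) and -0.06 ± 0.09 (adjusted p = 0.641).

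SRSF8 (ILMN_1772702), a close relative of SRSF2, was the SR gene with the largest fall in the isoform knockdown. It read 8.94 and 8.93 in the controls, 8.66, 8.76 and 8.73 in the WT and 8.46, 8.43 and 8.44 in the isoform knockdown, with no overlap between groups. The isoform knockdown was lower than control, with a difference of -0.49 ± 0.08 (adjusted p = 0.00172), the WT knockdown differed by -0.22 ± 0.08 (adjusted p = 0.0538), and the knockdowns by -0.27 ± 0.08 (adjusted p = 0.0203). That last difference had adjusted p values of 0.0662, 0.0564 and 0.0559 without WT replicate 2, isoform replicate 2 or isoform replicate 3, and stood at -0.22 with an adjusted p of 0.399 with centring on all probes.

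SRSF10 (ILMN_2354649), which acts as a splicing repressor when it is dephosphorylated, read 8.64 and 8.49 in the controls, 8.20, 8.04 and 8.08 in the WT knockdown and 8.09, 8.48 and 8.33 in the isoform knockdown. It fell in the WT knockdown, with a difference of -0.46 ± 0.12 (adjusted p = 0.0123; -0.38 and 0.092 without control replicate 1) and differed by -0.27 ± 0.12 in the isoform knockdown (adjusted p = 0.118). A dimmer probe of the gene fell in both knockdowns, by -1.01 (adjusted p = 7.78e-05) and -0.83 (adjusted p = 0.000482). SRSF1, the founding SR protein and a proto-oncogene product, also fell in both, with differences of -0.42 ± 0.09 (adjusted p = 0.00483) and -0.35 ± 0.09 (adjusted p = 0.0173). SRSF3 was lower in the isoform knockdown by its brightest probe, with differences of -0.31 ± 0.09 against control (adjusted p = 0.0289) and -0.25 ± 0.08 against the WT knockdown (adjusted p = 0.0467). A second SRSF3 probe passed as lower in both knockdowns, at -0.51 in the WT and -0.79 in the isoform knockdown. Between the knockdowns that probe stood at -0.27 and did not pass. SRSF6, SRSF9 and SRSF11 passed in no comparison.

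Of the 24 hnRNP genes, 9 were lower and 3 higher in the isoform than in the WT knockdown, which became 4 and 2 with centring on all probes. Against control 7 rose and 7 fell in the WT knockdown, which became 4 and 10 with centring on all probes, and 4 rose and 7 fell in the isoform knockdown, which became 2 and 11. Shares over all genes were 18.8% lower and 19% higher between the knockdowns. Against control 26.6% rose and 29.7% fell in the WT knockdown, and 19.9% and 24.1% in the isoform knockdown. Of all probe calls with centring on all probes, 26.8% were higher in each knockdown against control and 61.9% between the knockdowns. HNRNPH2 and HNRNPU rose in both knockdowns, while HNRNPC, HNRNPLL, HNRNPD and HNRNPA2B1 fell in both by the brightest probe.

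HNRNPDL (ILMN_1653432), an RNA-binding relative of AUF1, had the largest difference between the knockdowns of all members. It read 9.69 and 9.71 in the controls, 10.73, 10.67 and 10.77 in the WT knockdown and 9.17, 9.39 and 9.58 in the isoform knockdown. The WT arrays were all above control and the isoform arrays all below it. The differences were 1.03 ± 0.12 (adjusted p = 0.000102), -0.32 ± 0.12 (adjusted p = 0.0597) and, between the knockdowns, -1.34 ± 0.11 (adjusted p = 3.78e-05). A second probe of HNRNPDL (ILMN_1730572) went the other way, at -0.67 in the WT knockdown (adjusted p = 0.0015), -0.07 in the isoform knockdown (adjusted p = 0.699) and 0.60 between the knockdowns (adjusted p = 0.00282). Averaged over its probes, the gene differed by 0.18 in the WT knockdown (adjusted p = 0.132).

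HNRNPH2 (ILMN_2362245), which binds G-rich tracts, rose in both knockdowns and more in the isoform knockdown. Its signals were 8.28 and 8.22, 9.30, 9.31 and 9.37 and 9.70, 9.52 and 9.71 in the control, WT knockdown and isoform knockdown arrays, with no overlap between any groups. The rises were 1.08 ± 0.09 (adjusted p = 2.13e-05) and 1.40 ± 0.09 (adjusted p = 1.7e-05). The difference between the knockdowns of 0.32 ± 0.08 (adjusted p = 0.0175) had adjusted p values of 0.0501, 0.0576 and 0.0599 without WT replicate 1, isoform replicate 1 or isoform replicate 3, and of 0.0889 with centring on all probes. A second probe was at 0.04 in the WT knockdown and rose by 0.52 in the isoform knockdown (adjusted p = 0.0159).

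The related G-tract binder HNRNPF (ILMN_1668179) read 6.74 and 6.68 in the controls, 6.91, 7.11 and 6.69 in the WT and 6.42, 6.19 and 6.13 in the isoform knockdown. Isoform arrays were the lowest, and WT arrays overlapped with control. It fell in the isoform knockdown, with a difference of -0.47 ± 0.14 (adjusted p = 0.0229) and was lower there than in the WT knockdown, with a difference of -0.66 ± 0.12 (adjusted p = 0.00305). The fall against control had adjusted p values of 0.11 and 0.0806 without control replicate 1 or 3, and 0.06 and 0.0658 without isoform replicate 2 or 3. HNRNPH1, another G-tract binder, was lower in the isoform than in the WT knockdown, with a difference of -0.42 ± 0.07 (adjusted p = 0.00247), as was HNRNPH3, with a difference of -0.39 ± 0.12 (adjusted p = 0.0308). Both other tested HNRNPH1 probes fell in the isoform knockdown, by as much as -0.72, and 1 of them fell in the WT knockdown (-0.66). Between the knockdowns they stood at -0.51, which passed, and -0.03, which did not.

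HNRNPC (ILMN_1695588), which binds uridine tracts of nascent transcripts, fell in both knockdowns. Its signals were 9.97 and 10.08 in the controls, 9.19, 8.99 and 8.90 in the WT and 8.89, 9.09 and 9.27 in the isoform knockdown, so that all knockdown arrays lay below both controls and the knockdowns overlapped. The falls were -0.999 ± 0.13 (adjusted p = 0.000216) and -0.94 ± 0.13 (adjusted p = 0.000596), and a second probe differed by -0.28 (adjusted p = 0.0541) and -0.51 (adjusted p = 0.00464).

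Its near copy HNRNPCL2 (ILMN_3245015) read 5.85 and 5.81 in the controls, 5.61, 5.49 and 5.34 in the WT and 5.15, 5.36 and 5.20 in the isoform knockdown. The differences from control were -0.35 ± 0.11 (adjusted p = 0.0231) and -0.59 ± 0.11 (adjusted p = 0.00269), and adjusted p in the WT knockdown was 0.11, 0.0767 and 0.0612 without control replicate 1, control replicate 3 or WT replicate 3. That call also ended with no background correction (-0.18, adjusted p = 0.0659), the authors' log2 values (-0.19, adjusted p = 0.0632), centring on the tested probes (adjusted p = 0.0801) and an intensity trend (adjusted p = 0.0776). HNRNPC and the HNRNPCL genes are closely similar in sequence, so which of them each probe reads is uncertain. HNRNPCL1 was not well above background on any isoform array and was detected on 2 of 3 WT knockdown arrays. Its call as lower in the isoform than in the WT knockdown stays in the counts of members. That call is no separate support, and its adjusted p is left out. HNRNPCL3 passed in no comparison.

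HNRNPLL (ILMN_1791575), known for regulating CD45 splicing in T cells, read 8.00 and 7.90 in the controls, 6.88, 6.85 and 7.10 in the WT and 7.42, 7.38 and 7.43 in the isoform knockdown. The groups did not overlap, with the WT knockdown lowest and the controls highest. The falls were -1.01 ± 0.10 in the WT (adjusted p = 4.64e-05) and -0.54 ± 0.10 in the isoform knockdown (adjusted p = 0.0028), and the isoform arrays were higher than the WT arrays by 0.46 ± 0.09 (adjusted p = 0.0041).

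HNRNPD (ILMN_2321451), or AUF1, which binds AU-rich elements in unstable mRNAs, read 13.29 and 13.22 in the controls, 12.81, 12.80 and 12.63 in the WT knockdown and 12.52, 12.56 and 12.65 in the isoform knockdown. All knockdown arrays were below control, with differences of -0.51 ± 0.10 (adjusted p = 0.00188) and -0.67 ± 0.10 (adjusted p = 0.000697), and the knockdowns overlapped. HNRNPA0 (ILMN_1753279), another binder of AU-rich elements, fell in the isoform knockdown: its signals were 9.94 and 9.95 in the controls, 9.63, 9.88 and 9.82 in the WT and 9.01, 9.17 and 9.18 in the isoform knockdown. The isoform arrays were all below the others, with differences of -0.83 ± 0.11 against control (adjusted p = 0.000393) and -0.66 ± 0.09 against the WT knockdown (adjusted p = 0.000843). The WT knockdown differed from control by -0.17 ± 0.11 (adjusted p = 0.209).

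HNRNPA1 (ILMN_1663447), a splicing repressor, was low in the WT knockdown by its brightest probe. Its signals were 8.07 and 7.88 in the controls, 7.43, 7.50 and 7.55 in the WT and 8.13, 7.98 and 8.25 in the isoform knockdown, and the isoform arrays overlapped with control. The differences were -0.49 ± 0.11 (adjusted p = 0.00472; -0.38 and 0.0536 without control replicate 1), 0.14 ± 0.11 (adjusted p = 0.336) and 0.63 ± 0.10 between the knockdowns (adjusted p = 0.00126). A second probe (ILMN_1815882) rose by 0.34 in the WT knockdown (adjusted p = 0.0451) and stood at -0.22 between the knockdowns (adjusted p = 0.176). Averaged over both probes, HNRNPA1 differed by -0.073 in the WT knockdown (adjusted p = 0.536) and by 0.21 between the knockdowns (adjusted p = 0.0779). HNRNPA1 has many processed pseudogenes, so what each probe reads is uncertain. HNRNPA1L2, a near copy of HNRNPA1, rose in the WT knockdown by 0.80 ± 0.10 (adjusted p = 0.000167) and was lower in the isoform than in the WT knockdown, with a difference of -0.60 ± 0.09 (adjusted p = 0.00104). A second HNRNPA1L2 probe stood at 0.14 in the WT knockdown and -0.16 between the knockdowns and passed in neither.

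HNRNPA2B1 (ILMN_2369682), an abundant nuclear RNA-binding protein, read 13.31 and 13.36 in the controls, 12.55, 12.61 and 12.65 in the WT and 12.77, 12.82 and 12.85 in the isoform knockdown, with no overlap between groups. By this probe the differences from control were -0.73 ± 0.09 (adjusted p = 0.000105) and -0.52 ± 0.09 (adjusted p = 0.00136). Its other 3 tested probes rose in the WT knockdown, by 0.68 (adjusted p = 0.0021), 0.43 (adjusted p = 0.00843) and 0.23 (adjusted p = 0.0476), and one of them rose by 0.36 in the isoform knockdown (adjusted p = 0.025). Averaged over its 4 probes the gene stood at 0.15 in the WT and 0.074 in the isoform knockdown, on the other side of 0 from its brightest probe. HNRNPA3 fell in the WT knockdown, with a difference of -0.32 ± 0.10 (adjusted p = 0.0202).

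HNRNPU (ILMN_2370135), the scaffold attachment factor A, read 7.71 and 7.87 in the controls, 8.50, 8.57 and 9.12 in the WT and 8.61, 8.40 and 8.51 in the isoform knockdown. All knockdown arrays were above control, WT replicate 3 was the highest, and the knockdowns overlapped. The rises were 0.94 ± 0.17 (adjusted p = 0.00156) and 0.71 ± 0.17 (adjusted p = 0.0102; 0.63 and 0.074 without control replicate 1). A second probe (ILMN_1743677) fell in both, with differences of -0.35 (adjusted p = 0.0205) and -0.32 (adjusted p = 0.0389), and over both probes the isoform knockdown stood at 0.20 (adjusted p = 0.0856).

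HNRNPUL2 (ILMN_2072091), a relative of HNRNPU, read 8.56 and 8.88 in the controls, 9.33, 9.38 and 9.21 in the WT and 9.28, 9.34 and 9.41 in the isoform knockdown. It rose in both by similar fitted amounts, 0.59 ± 0.11 (adjusted p = 0.00202) and 0.63 ± 0.11 (adjusted p = 0.00244), which passed in neither with centring on all probes (adjusted p = 0.252 and 0.127).

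HNRNPK (ILMN_3179371), which binds poly-C tracts, read 11.49 and 11.36 in the controls, 11.88, 11.80 and 11.83 in the WT and 11.79, 11.84 and 11.85 in the isoform knockdown. Knockdown arrays were all above control and overlapped with each other. It rose by 0.41 ± 0.09 (adjusted p = 0.00341) and 0.40 ± 0.09 (adjusted p = 0.00601), with adjusted p of 0.916 and 0.498 with centring on all probes and, in the isoform knockdown, 0.0576 without control replicate 3. Of its other 3 probes in the WT knockdown, one rose by 0.43, one fell by 0.32 and one stood at -0.14 (adjusted p = 0.0113, 0.024 and 0.411), and the mean over all 4 was 0.095 (adjusted p = 0.275). HNRNPR, also an RNA-binding hnRNP, rose in the WT knockdown by 0.24 ± 0.09 (adjusted p = 0.0425) and was lower in the isoform than in the WT knockdown, with a difference of -0.36 ± 0.08 (adjusted p = 0.00629), and HNRNPL, a binder of CA repeats, was lower there, with a difference of -0.30 ± 0.09 (adjusted p = 0.0236). HNRNPAB, HNRNPM and HNRNPUL1 passed in no comparison by their brightest probes.

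**Figure D2:**
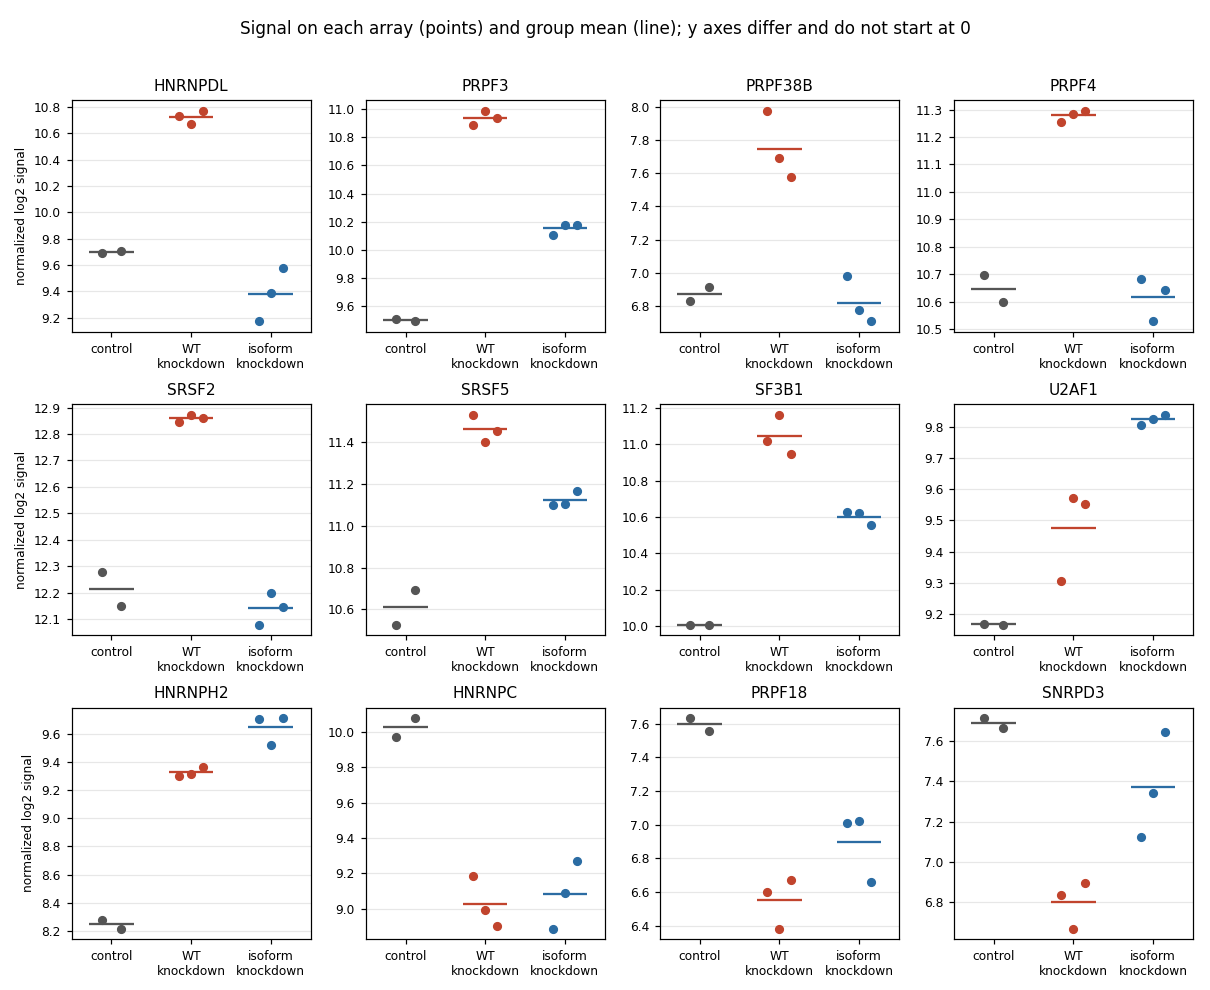
Normalized log2 signal of 12 of the named genes on each array (points) with the group mean (line), for 2 control, 3 WT knockdown and 3 isoform knockdown arrays; the axes differ between panels and do not start at 0. For HNRNPDL, PRPF38B, PRPF4 and SRSF2 the WT knockdown stands above both other groups, while HNRNPC and PRPF18 are below control on all 6 knockdown arrays.

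Of the 12 tested SF3A, SF3B and U2AF genes, 8 rose after the WT siRNA and 6 after the isoform siRNA. Of 6 SF3B genes 5 rose in the WT and 4 in the isoform knockdown and none fell, but with centring on all probes the counts were 1 higher and 1 lower in the WT and 0 and 0 in the isoform knockdown. Of 3 U2AF genes 2 rose in each knockdown, against 1 and 0 with centring on all probes. Of 3 SF3A genes 1 rose in the WT knockdown and 1 fell in the isoform knockdown, and with centring on all probes 0 rose and 1 fell in each. Between the knockdowns 1 SF3A and 1 SF3B gene were lower in the isoform knockdown and 1 U2AF gene was higher, and none passed with centring on all probes. Over all genes 26.6% rose and 29.7% fell in the WT knockdown, and 19.9% and 24.1% in the isoform knockdown. Between the knockdowns 18.8% of all genes were lower and 19% higher. Of all probe calls with centring on all probes, 26.8% were higher in each knockdown against control and 61.9% between the knockdowns.

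SF3B1 (ILMN_1706075), the branch-site protein that is mutated in several cancers, read 10.01 and 10.01 in the controls, 11.02, 11.16 and 10.95 in the WT and 10.63, 10.62 and 10.56 in the isoform knockdown. The groups did not overlap, with the WT knockdown highest. It rose by 1.03 ± 0.09 (adjusted p = 2.62e-05) and 0.59 ± 0.09 (adjusted p = 0.00118), and differed by -0.44 ± 0.08 between the knockdowns (adjusted p = 0.00365). Its other 2 probes stood at 0.06 and 0.02 in the WT knockdown (adjusted p = 0.652 and 0.933), and with the mean over the 3 probes the isoform knockdown's difference was 0.22 (adjusted p = 0.0675) and that between the knockdowns -0.15 (adjusted p = 0.152). Centring on all probes ended the same calls, at 0.30 (adjusted p = 0.214) and -0.35 (adjusted p = 0.13). SF3B2, SF3B4 and SF3B6, further subunits of the complex, rose in both knockdowns, by 0.67 ± 0.09, 0.48 ± 0.09 and 0.34 ± 0.09 in the WT and 0.59 ± 0.09, 0.54 ± 0.09 and 0.45 ± 0.09 in the isoform knockdown. A second SF3B6 probe stood at 0.02 in the WT and 0.24 in the isoform knockdown and passed in neither. SF3B5 rose in the WT knockdown by 0.35 ± 0.10 (adjusted p = 0.0123), and SF3B3 passed in no comparison.

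SF3A3 (ILMN_1705151), a subunit of SF3A, the complex that joins SF3B in the U2 snRNP, read 10.68 and 10.64 in the controls, 11.15, 11.16 and 11.24 in the WT and 10.67, 10.80 and 10.65 in the isoform knockdown. Its WT knockdown arrays were above all others and the isoform arrays overlapped with control. It rose in the WT knockdown by 0.53 ± 0.09 (adjusted p = 0.00103), and the isoform knockdown was lower than the WT knockdown, with a difference of -0.48 ± 0.08 (adjusted p = 0.00191); with centring on all probes these adjusted p were 0.517 and 0.101. SF3A2 fell in the isoform knockdown, with a difference of -0.34 ± 0.09 (adjusted p = 0.0147), and SF3A1, which was detected on 1 of 3 arrays of each knockdown, passed in no comparison.

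U2AF1 (ILMN_1772113), which recognises the AG at the 3′ splice site, read 9.17 and 9.16 in the controls, 9.31, 9.57 and 9.55 in the WT and 9.81, 9.82 and 9.84 in the isoform knockdown. The groups did not overlap, and the isoform knockdown was highest. It rose in the isoform knockdown by 0.66 ± 0.10 (adjusted p = 0.00108) and in the WT knockdown by 0.31 ± 0.10 (adjusted p = 0.0294), and the knockdowns differed by 0.35 ± 0.09 (adjusted p = 0.0174). With centring on all probes the WT knockdown's value was -0.027, and leaving out control replicate 1 or 3, or WT replicate 2 or 3, gave adjusted p values of 0.105, 0.11, 0.0834 and 0.072. The isoform knockdown's rise did not pass with centring on all probes (0.38, adjusted p = 0.103) or with the mean over both probes (0.25, adjusted p = 0.107). The difference between the knockdowns had an adjusted p of 0.0658 and 0.111 under these settings and of 0.0503 without isoform replicate 3, and the WT knockdown's mean over both probes was 0.023 (adjusted p = 0.879). A second U2AF1 probe stood at -0.26 (adjusted p = 0.254) in the WT and -0.15 (adjusted p = 0.537) in the isoform knockdown, and near-identical copies of this gene make its probes uncertain. U2AF1L4, a paralogue, rose in both knockdowns by 0.69 ± 0.15 (adjusted p = 0.00441) and 0.51 ± 0.15 (adjusted p = 0.026), and U2AF2, the large subunit that binds the polypyrimidine tract, passed in no comparison.

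Of 10 tested PRPF genes, 5 were lower and 1 higher in the isoform than in the WT knockdown, and 4 and 1 with centring on all probes. Against control 5 rose and 1 fell in the WT knockdown (4 and 2 with centring on all probes), and 2 rose and 1 fell in the isoform knockdown (1 and 2). Shares over all genes were 18.8% lower and 19% higher between the knockdowns. Against control 26.6% rose and 29.7% fell in the WT knockdown, and 19.9% and 24.1% in the isoform knockdown. Of all probe calls with centring on all probes, 26.8% were higher in each knockdown against control and 61.9% between the knockdowns. PRPF3, PRPF4 and PRPF38B, which rose in the WT knockdown, were lower in the isoform than in the WT knockdown, as was PRPF8. PRPF39, detected in the WT knockdown alone, is in the PRPF counts but is no separate support.

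PRPF3 (ILMN_1715392), a protein of the U4/U6 snRNP, had the largest rise of all members in the WT knockdown. It read 9.51 and 9.49 in the controls, 10.89, 10.99 and 10.93 in the WT and 10.10, 10.18 and 10.18 in the isoform knockdown, with no overlap between groups. The rises were 1.44 ± 0.09 (adjusted p = 2.68e-06) and 0.65 ± 0.09 (adjusted p = 0.00042; 0.37 and 0.117 with centring on all probes), and the isoform arrays were lower than the WT arrays, with a difference of -0.79 ± 0.08 (adjusted p = 0.000106).

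PRPF4 (ILMN_1697440), its partner in the U4/U6 snRNP, read 10.70 and 10.60 in the controls, 11.26, 11.29 and 11.29 in the WT and 10.68, 10.53 and 10.64 in the isoform knockdown. The WT arrays were above all others, and the isoform arrays overlapped with control. It rose by 0.63 ± 0.09 in the WT knockdown (adjusted p = 0.000345; 0.27 and 0.243 with centring on all probes) and was lower in the isoform than in the WT knockdown, with a difference of -0.66 ± 0.08 (adjusted p = 0.000344).

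PRPF38B (ILMN_1799299), a relative of the B-complex protein PRPF38A, read 6.83 and 6.92 in the controls, 7.97, 7.69 and 7.58 in the WT and 6.98, 6.78 and 6.71 in the isoform knockdown. Again only the WT arrays stood apart. The differences were 0.87 ± 0.13 (adjusted p = 0.000523), -0.05 ± 0.13 (adjusted p = 0.781) and -0.93 ± 0.12 between the knockdowns (adjusted p = 0.000457). PRPF38A itself (ILMN_1656274) read 8.12 and 8.18, 7.90, 7.97 and 7.90 and 8.35, 8.35 and 8.25 in control, WT and isoform arrays, lowest in the WT knockdown. By this probe it was higher in the isoform than in the WT knockdown by 0.39 ± 0.08 (adjusted p = 0.00437) and passed against control in neither (adjusted p = 0.0567 and 0.15). A second PRPF38A probe passed as higher in the isoform knockdown against control (0.42). That probe did not pass in the WT knockdown (0.21) or between the knockdowns (0.20).

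PRPF39 (ILMN_1692779), whose yeast homologue is a U1 snRNP protein, was detected on all WT knockdown arrays, at 5.42, 5.54 and 5.71, and on no control or isoform array. It was at least 1.62-fold higher in the WT knockdown than in control and at least 1.6-fold higher there than in the isoform knockdown. These bounds set the mean of the WT arrays against the mean, over the other group's arrays, of the lowest signal among detected probes or the probe's own signal where higher. PRPF39 passed the filter on dim probes through the WT arrays alone. Its calls stay in the counts of members but are no separate support, and its adjusted p values are left out.

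PRPF19 (ILMN_1769545), the ubiquitin ligase at the core of the Prp19 complex, read 8.79 and 8.86 in the controls, 9.58, 9.72 and 9.68 in the WT and 9.46, 9.52 and 9.68 in the isoform knockdown. All knockdown arrays were above control and overlapped with each other, with rises of 0.84 ± 0.10 (adjusted p = 0.000125) and 0.73 ± 0.10 (adjusted p = 0.000551). PRPF18 (ILMN_1807243), which acts in the second catalytic step, went the other way: it read 7.63 and 7.56 in the controls, 6.60, 6.38 and 6.67 in the WT and 7.01, 7.02 and 6.66 in the isoform knockdown. All its knockdown arrays were below control, with differences of -1.04 ± 0.14 (adjusted p = 0.000203) and -0.70 ± 0.14 (adjusted p = 0.0034). PRPF8, the protein at the centre of the U5 snRNP, was lower in the isoform than in the WT knockdown, with a difference of -0.33 ± 0.09 (adjusted p = 0.0163), and PRPF6 and PRPF31 passed in no comparison.

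Promoter sequence is shown for 3 genes that rose in the WT knockdown and were lower in the isoform knockdown, those with the smallest adjusted p among the members with the largest such falls that had a sequence. They are the 250 bases before the transcription start as RefSeq gives them on GRCh38.p14, for HNRNPDL at chr4:82430226-82430475 on the minus strand, PRPF4 at chr9:113275408-113275657 on the plus strand and PRPF38B at chr1:108692060-108692309 on the plus strand. Capitals mark matches to CCGGAA, the core bound by ETS factors and common near the starts of housekeeping genes, on either strand.
HNRNPDL: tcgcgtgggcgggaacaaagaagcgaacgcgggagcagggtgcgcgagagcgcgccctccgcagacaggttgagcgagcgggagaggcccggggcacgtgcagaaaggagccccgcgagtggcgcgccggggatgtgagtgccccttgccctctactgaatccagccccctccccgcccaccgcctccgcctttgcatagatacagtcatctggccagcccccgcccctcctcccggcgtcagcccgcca
PRPF4: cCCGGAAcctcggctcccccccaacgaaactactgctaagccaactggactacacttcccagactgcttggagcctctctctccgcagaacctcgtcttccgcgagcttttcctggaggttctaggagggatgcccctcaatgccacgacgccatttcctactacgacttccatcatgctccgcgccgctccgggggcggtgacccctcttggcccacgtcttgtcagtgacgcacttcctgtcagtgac
PRPF38B: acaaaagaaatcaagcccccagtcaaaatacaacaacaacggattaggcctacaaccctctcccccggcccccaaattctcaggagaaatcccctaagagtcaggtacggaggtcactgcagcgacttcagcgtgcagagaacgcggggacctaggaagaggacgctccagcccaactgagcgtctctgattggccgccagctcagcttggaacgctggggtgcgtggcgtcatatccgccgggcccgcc
PRPF4 has 1 such match and the other 2 promoters have 0. Over the 61 tested members with a promoter in the RefSeq table, 24 held CCGGAA in this window, or 39.3%, against 24.8% of 9757 promoters of genes tested on the arrays, 19.3% of protein-coding genes and 14.8% of all 27305 promoters. Both strands were searched, no other motif was, and a match describes letters in the window and no binding.

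Of 11 tested SNRP genes, 3 were higher and 0 lower in the isoform than in the WT knockdown, and 1 and 0 with centring on all probes. Against control 2 rose and 3 fell in the WT knockdown, which became 0 and 5 with centring on all probes, and 1 rose and 0 fell in the isoform knockdown, which became 0 and 2. Shares over all genes were 18.8% lower and 19% higher between the knockdowns. Against control 26.6% rose and 29.7% fell in the WT knockdown, and 19.9% and 24.1% in the isoform knockdown. Of all probe calls with centring on all probes, 26.8% were higher in each knockdown against control and 61.9% between the knockdowns.

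SNRPD3 (ILMN_1794599), a protein of the Sm ring that encircles the small nuclear RNAs, read 7.71 and 7.66 in the controls, 6.84, 6.67 and 6.89 in the WT and 7.12, 7.34 and 7.65 in the isoform knockdown. WT arrays were the lowest, and the spread among isoform arrays was wide. It fell in the WT knockdown, with a difference of -0.89 ± 0.15 (adjusted p = 0.000797) and was higher in the isoform than in the WT knockdown by 0.57 ± 0.13 (adjusted p = 0.00901).

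SNRPB (ILMN_1799103), another Sm protein, read 12.03 and 11.98 in the controls, 12.32, 12.37 and 12.22 in the WT and 12.65, 12.62 and 12.56 in the isoform knockdown, the isoform arrays being highest with no overlap. It rose by 0.61 ± 0.09 in the isoform knockdown (adjusted p = 0.000764), by 0.30 ± 0.09 in the WT knockdown (adjusted p = 0.0182) and differed by 0.31 ± 0.08 between them (adjusted p = 0.0157). With centring on all probes the isoform knockdown's rise was 0.38 (adjusted p = 0.109), the difference between the knockdowns had an adjusted p of 0.054 and the WT knockdown's value was -0.049. The latter had adjusted p values of 0.0585, 0.102 and 0.0573 without control replicate 1, control replicate 3 or WT replicate 2, and of 0.099 with the mean over its probes.

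SNRPA1 (ILMN_1715179), the U2 snRNP protein A′, read 11.64 and 11.64 in the controls, 11.24, 11.33 and 11.34 in the WT and 11.57, 11.56 and 11.51 in the isoform knockdown, lowest in the WT knockdown. It fell there, with a difference of -0.34 ± 0.08 (adjusted p = 0.00828). The difference between the knockdowns of 0.24 ± 0.08 (adjusted p = 0.0347) did not pass the threshold when control replicate 3 or any single knockdown array was left out, with adjusted p of 0.0503 to 0.0997, or with centring on all probes (0.108) or the replicate number as a block (0.0669). SNRPA and SNRPC, proteins of the U1 snRNP, differed from control in opposite directions in the WT knockdown, SNRPA by -0.29 ± 0.09 (adjusted p = 0.027) and SNRPC by 0.28 ± 0.10 (adjusted p = 0.0467). A second SNRPC probe stood at 0.02 in the WT knockdown and did not pass. The other 6 tested SNRP genes, among them SNRPD1, SNRPD2, SNRPF and SNRPG of the Sm ring, passed in no comparison by the brightest probe. They were among 18 members with no call in any comparison by that probe. Dimmer probes of HNRNPAB, HNRNPM, HNRNPUL1 and SNRPB2, which are among the 18, did pass in at least 1 comparison. The SNRPB2 probe was higher by 0.36 in the isoform knockdown and by 0.30 between the knockdowns.

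**Figure D3:**
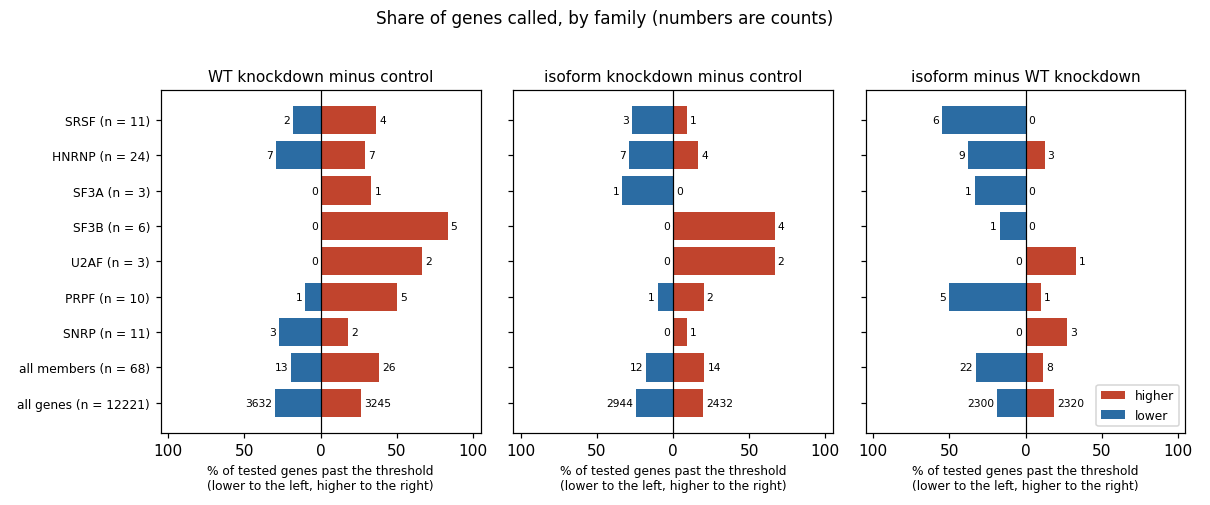
Share of tested genes past the threshold as lower (left, blue) and higher (right, red) by name family, for all 68 members and for all 12221 genes, with counts beside the bars. Between the knockdowns 6 SRSF, 9 HNRNP and 5 PRPF genes are lower while 3 SNRP genes are higher; with centring on all probes these are 1, 4, 4 and 1, and both panels against control turn for all members. Of all tested probes called under that centring, 26.8% are higher in each knockdown against control and 61.9% between the knockdowns.

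Different probes of a gene often disagreed, so a call by the brightest probe describes that probe. Of 29 members with more than 1 tested probe, all probes passed in the same direction for 4 in the WT knockdown, 6 in the isoform knockdown and 3 between the knockdowns. None passed for 7, 8 and 12 of them, and for 13 in each comparison only some did. Probes passed in opposite directions for 5 in the WT knockdown (HNRNPA1, HNRNPA2B1, HNRNPDL, HNRNPK and HNRNPU), 2 in the isoform knockdown (HNRNPA2B1 and HNRNPU) and 1 between the knockdowns (HNRNPDL). The platform annotation ties each probe to 1 transcript record. The brightest HNRNPDL probe is tied to a non-coding record and the other to a coding one, and the 2 HNRNPU probes are tied to different coding records. The opposed HNRNPA1 probes share a record, as do the brightest HNRNPA2B1 and HNRNPK probes with one that was called the other way. Which exons the probes read was not known here, and whether splice forms account for these differences was not tested.

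**Figure D4:**
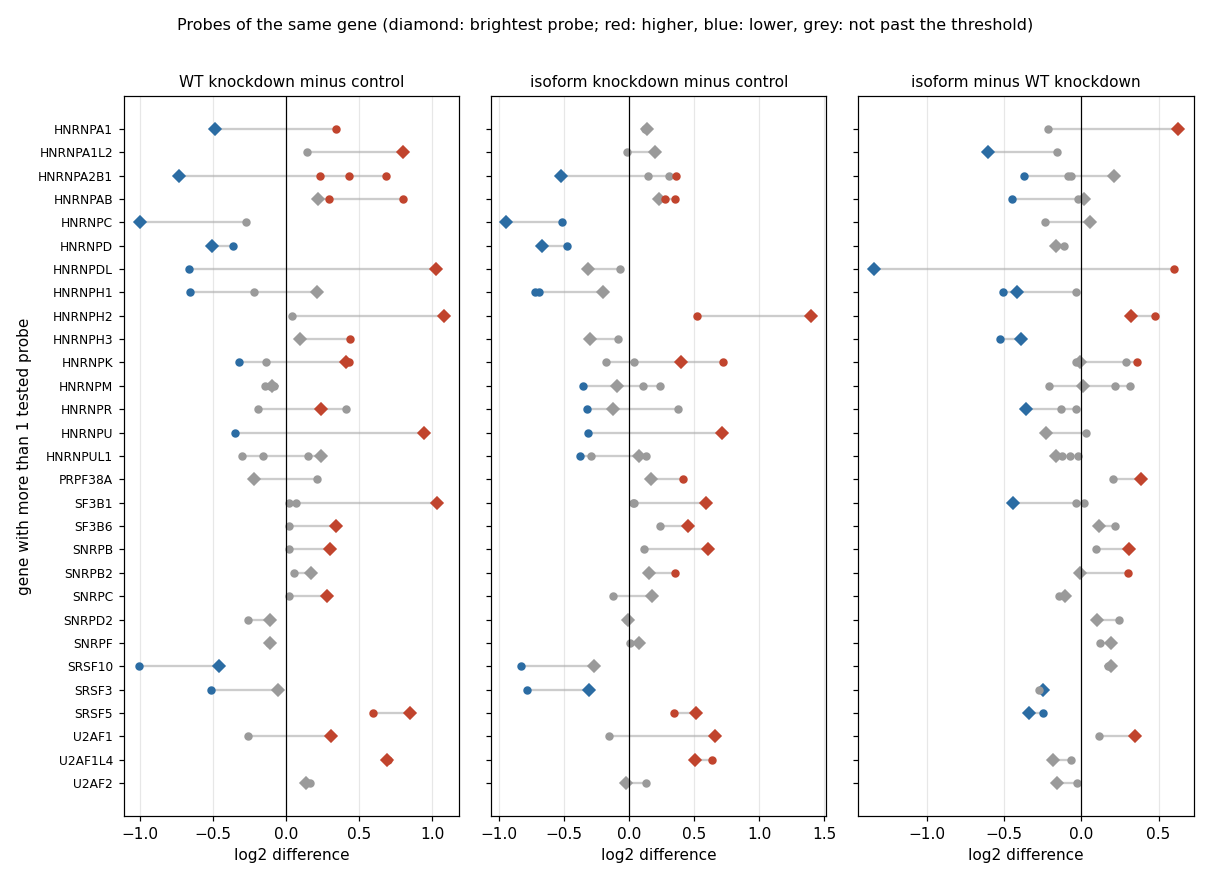
Log2 difference of each tested probe of the 29 members with more than 1, joined by a line per gene, for the 3 comparisons; diamonds mark the brightest probe, red and blue those past the threshold as higher and lower. SRSF5 has both probes on one side of 0 in all panels, and HNRNPDL and HNRNPA2B1 have probes called on both sides.

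Other genes of the splicing machinery, from lists outside the rule, were read from the same fit. Counts outside brackets stand against the shares of all genes given above. These were 26.6% higher and 29.7% lower for the WT knockdown, 19.9% and 24.1% for the isoform knockdown, and 19% and 18.8% between the knockdowns. Counts in brackets, with centring on all probes, stand against all 22467 tested probes under that centring. Of these, 2849 were higher and 7765 lower in the WT knockdown and 2103 and 5753 in the isoform knockdown. Between the knockdowns 3045 were higher and 1875 lower. Of the kinases that phosphorylate SR proteins, 4 of 5 tested rose and 1 fell in the WT knockdown (3 and 1 with centring on all probes), 3 rose and 1 fell in the isoform knockdown (1 and 1), and 2 were lower and 0 higher in the isoform than in the WT knockdown (2 and 0). CLK4 and CLK1 rose in the WT knockdown by 1.46 ± 0.13 (adjusted p = 2.68e-05) and 1.16 ± 0.08 (adjusted p = 7.32e-06) and were lower in the isoform than in the WT knockdown, with differences of -1.60 ± 0.12 and -0.65 ± 0.07 (adjusted p = 2.83e-05 and 0.00025). SRPK2 rose in both knockdowns, by 1.16 ± 0.11 and 1.29 ± 0.11, and SRPK1 fell in both, with differences of -0.95 ± 0.09 and -0.90 ± 0.09. CLK3 rose in both, by 0.73 ± 0.10 and 0.67 ± 0.10.

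Of 18 other SR-related proteins 9 rose and 1 fell in the WT knockdown (3 and 6 with centring on all probes), 3 rose and 1 fell in the isoform knockdown (1 and 3), and 8 were lower and 1 higher between the knockdowns (6 and 0). TRA2A, a splicing activator related to fly transformer 2, rose by 2.09 ± 0.11 and 1.39 ± 0.11 and was lower in the isoform than in the WT knockdown, with a difference of -0.71 ± 0.10 (adjusted p = 1.74e-06, 4.34e-05 and 0.000797). SON and SRRM1, proteins of nuclear speckles, rose in the WT knockdown by 0.79 ± 0.09 and 0.86 ± 0.09 and were lower in the isoform knockdown than there, with differences of -0.80 ± 0.08 and -0.76 ± 0.08. SCAF4 and LUC7L did likewise, with 0.80 ± 0.08 and 0.60 ± 0.10 in the WT knockdown and -0.60 ± 0.08 and -0.71 ± 0.09 between the knockdowns. RNPS1 rose in both, by 0.71 ± 0.09 and 0.59 ± 0.09, and LUC7L2 fell in the isoform knockdown, with a difference of -0.33 ± 0.10.

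Of 25 tested RNA-binding splicing regulators 11 rose and 11 fell in the WT knockdown (1 and 11 with centring on all probes), 5 rose and 7 fell in the isoform knockdown (1 and 11), and 7 were lower and 4 higher between the knockdowns (2 and 3). MBNL1 and QKI, regulators of alternative exons, fell in the WT knockdown, with differences of -1.10 ± 0.11 and -1.10 ± 0.15 and in the isoform knockdown, with differences of -0.84 ± 0.11 and -0.70 ± 0.15. PTBP1, the polypyrimidine tract-binding repressor, fell in both, with differences of -0.59 ± 0.09 and -0.84 ± 0.09, while its neuronal paralogue PTBP2 rose in the WT knockdown by 0.90 ± 0.10 and was lower in the isoform than in the WT knockdown, with a difference of -0.83 ± 0.09. RBM4 rose in both, by 0.48 ± 0.08 and 0.98 ± 0.08, and MATR3 was lower in the isoform than in the WT knockdown, with a difference of -0.51 ± 0.09.

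Of 8 LSM proteins, which form the ring on U6 RNA and on decaying mRNAs, 6 fell in the WT and 5 in the isoform knockdown and none rose. The counts were the same with either centring, 5 fell in the WT knockdown with cyclic loess, and 1 rose in each knockdown with the authors' log2 values. The differences were -1.09 ± 0.14 and -1.34 ± 0.14 for LSM6, -0.46 ± 0.09 and -0.38 ± 0.09 for LSM4, -0.34 ± 0.10 and -0.53 ± 0.10 for LSM2 and -0.26 ± 0.09 and -0.55 ± 0.09 for LSM8. LSM7 fell in the WT knockdown, with a difference of -0.74 ± 0.10 and was higher in the isoform than in the WT knockdown by 0.61 ± 0.09. Of 10 genes of the SMN complex, which loads Sm proteins, 3 rose and 3 fell in the WT knockdown and 3 rose and 2 fell in the isoform knockdown (2 and 4, and 0 and 3, with centring on all probes). GEMIN5, its RNA-binding subunit, rose by 0.93 ± 0.09 and 0.55 ± 0.09, and the SMN2 probe, which cannot be told from SMN1, by 0.82 ± 0.13 and 0.50 ± 0.13. Between the knockdowns 3 were lower and 1 higher (0 and 1 with centring on all probes).

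Of 23 tested helicases and Prp19-complex genes 12 rose and 2 fell in the WT knockdown (6 and 2 with centring on all probes), 8 rose and 5 fell in the isoform knockdown (3 and 6), and 13 were lower and 3 higher between the knockdowns (6 and 3). DHX38, the helicase PRP16, rose by 1.42 ± 0.11 and 0.48 ± 0.11 and was lower in the isoform than in the WT knockdown, with a difference of -0.93 ± 0.10, and DDX39B, a helicase of early assembly and mRNA export, was lower there, with a difference of -0.94 ± 0.07 (adjusted p = 3.69e-05). CTNNBL1, a Prp19-complex protein, went the other way, at -0.88 ± 0.10 in the WT knockdown and 0.82 ± 0.09 between the knockdowns. SLU7 and SYF2 rose in both knockdowns, by 1.17 ± 0.12 and 0.82 ± 0.09 in the WT and 1.20 ± 0.12 and 0.89 ± 0.09 in the isoform knockdown.

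Of 12 tested other U1, U2 and tri-snRNP proteins 9 rose and 0 fell in the WT knockdown (3 and 0 with centring on all probes), 7 rose and 1 fell in the isoform knockdown (1 and 1), and 6 were lower and 0 higher between the knockdowns (3 and 0). ZRSR2, which recognises the 3′ splice site of minor introns, rose by 1.14 ± 0.09 and 0.27 ± 0.09 and was lower in the isoform than in the WT knockdown, with a difference of -0.87 ± 0.08 (adjusted p = 8.2e-05). SART3 and USP39, tri-snRNP assembly factors, rose in the WT knockdown by 1.16 ± 0.12 and 0.97 ± 0.10 and in the isoform knockdown by 0.83 ± 0.12 and 0.58 ± 0.10. DNAJC8 rose in both by 0.65 ± 0.09 and 0.62 ± 0.09, and SF1, the branch-point binding protein, and SMNDC1 were lower in the isoform than in the WT knockdown, with differences of -0.54 ± 0.08 and -0.53 ± 0.12. Of 3 tested exon junction genes 1 rose in the WT and 2 in the isoform knockdown and none fell or differed between the knockdowns, and none passed with centring on all probes. EIF4A3, its helicase, rose in both, by 0.35 ± 0.10 and 0.43 ± 0.10, and CASC3 rose in the isoform knockdown by 0.57 ± 0.12.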

How the data were processed

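Biotin-labelled cRNA of 9 samples was read on 1-colour Illumina BeadChip arrays. Per the file headers, the signal table holds an intensity and a detection p-value per probe and sample, with no normalization apparent. A second table deposited by the authors holds log2 values that share 1 distribution between arrays. Per the submitters' processing notes, R 3.1.0 was used at an unnamed step; scanner, scanner software and genome build: not given in the sources used here. All columns were used (0 left unmapped).

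Control replicate 2 equalled the mean of replicates 1 and 3 in signal (tolerance 1e-06) and detection p-value (tolerance 1e-05) at 47231 of 47231 probes and was left out of the fit (its detection p-values still count in the filter below), which departs from 9 independent arrays. The knockdown signals stood in another row order than their probe IDs (rank correlation with the authors' log2 values -0.00219 to 0.000506), and 47231 rows were put back by a match of ranks to 1 probe each, so that the authors' log2 table alone says which probe a knockdown value belongs to.

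Background was removed by normexp with detection p-values (offset 16), quantile normalized and put on the log2 scale with neqc of limma 3.58.1 in R 4.3.3. The filter kept 22467 probes with a detection p under 0.05 on 3 or more of the 9 deposited columns; dimmer probes could not be measured. One fit of group means over 8 arrays (lmFit and eBayes with 5 residual degrees of freedom, and 4.33 from the prior) was adjusted by Benjamini-Hochberg over all kept probes, threshold 0.05. The number of arrays limits precision: the median SD over members was 0.0497 in controls, 0.082 in the WT and 0.0733 in the isoform knockdown. The fit was tested on simulated data. A gene's brightest probe was the one with the highest mean of the group means of the authors' log2 values. Levels of different probes were not compared.

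Symbols came from the platform annotation (30113 probes with 1 symbol, 8 with several, 17110 with none); all 71 members were in the RefSeq table and 0 symbols had changed. Values on every array are given for the 8 largest rises and 8 largest falls per comparison among called members with no overlap between the groups, for the member with the smallest adjusted p of a family with none, and for members whose probes passed in opposite directions. From each other list up to 3 genes per comparison with the smallest adjusted p were taken. Members, lists and this rule were chosen with earlier results of these data known. Replicate numbers did not pair the arrays: deviations from the group means correlated at -0.028 to 0.058 for 7 same-numbered pairs and -0.058 to 0.039 for 14 others. Alternatives changed the background correction, scaling, filter, variance model, threshold and probe rule, or used the authors' log2 values, all 9 columns, a replicate block or left out each array; centring on the median of all probes was added after seeing the data.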

Additional observations from a re-analysis of the deposited data

How the results depend on the processing

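Between the knockdowns the members called lower outnumbered those called higher under every alternative run. With centring on the median over all probes, chosen after seeing the data, the counts of higher and lower members were 11 and 22 for the WT siRNA, 3 and 21 for the isoform siRNA and 4 and 9 (13 in all) between the knockdowns. Of all tested probes called under this centring, 26.8% were higher for each siRNA against control and 61.9% between the knockdowns. SNRPB (-0.049) and U2AF1 (-0.027) in the WT knockdown then changed sign. An intensity trend gave 20 lower members in the isoform knockdown and 13 higher between the knockdowns, and keeping all 9 columns gave 22 and 13. Of all probes called in these settings, 47.2% and 47.1% were higher in the isoform knockdown and 52.7% and 52.8% between the knockdowns. An adjusted p under 0.01 left 19 members between the knockdowns, 4 of them higher, where 48.3% of all probes called were higher. With the mean over a gene's probes HNRNPA2B1 changed sign, to 0.15 after the WT and 0.074 after the isoform siRNA. In a fit with the replicate number as a block, which the arrays' pairing did not bear out, 23 rose and 12 fell after the WT siRNA, 13 and 11 after the isoform siRNA and 7 and 19 between the knockdowns. Of all probes called in that fit, 47.6%, 47.9% and 51.9% were higher. Leaving out 1 array at a time gave 29 to 38 called members in the WT knockdown (20 to 25 higher, 8 to 13 lower), 20 to 28 in the isoform knockdown (12 to 14 higher, 8 to 14 lower) and 23 to 28 between the knockdowns (6 to 8 higher, 16 to 22 lower). MTDH ranged from -1.01 to -0.85, -0.98 to -0.89 and -0.08 to 0.08. The causes of these changes were not tested. The probes of PRPF39, HNRNPCL1 and SF3A1 lay near background. PRPF39 is given as bounds, the calls of PRPF39 and HNRNPCL1 stay in the counts of members, and SF3A1 had no call.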
